A study of Mus musculus with 12 samples.

Results

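The complement components and regulators described here are 9 genes, namely Hc (complement C5), C3, C4b, C2, Cfb, Cfd, C1ra, Serping1 and Cd55. They were taken through 12 probes out of 39429 on the array, by matching each probe's accession to a gene. The 9 genes are among 20144 genes named in this way. The list was put together because Hc fell below background in LM8 cells, so the differences between LM8 and Dunn are described for these genes and not tested. Dunn is a mouse osteosarcoma cell line of low metastatic potential, and LM8 is a metastatic line obtained from it by selection in mice. Both were grown as established lines without any added agent, and each line is a single population. RNA was compared between early Dunn cells (Dunn_25, passage 25), late Dunn cells (Dunn_86, passage 86), early LM8 cells (LM8_24, passage 24) and late LM8 cells (LM8_91, passage 91), with 3 arrays in each group and 12 in all. The labels do not say whether the cultures were grown separately, and the study's methods speak of 3 samples per condition, so p-values measure the spread between these samples.

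Complement is a chain of plasma proteins that mark and lyse cells. In the classical pathway, C1q binds a target, the proteases C1r and C1s are activated, and C1s cuts C4 and C2 into the C3 convertase. In the alternative pathway, factor D (Cfd) cuts factor B (Cfb) bound to C3b, which gives a second convertase. Both convertases lead to the cleavage of C3 and of C5 (Hc), which starts the membrane attack complex and releases the attractant peptide C5a. Serping1 (C1 inhibitor) blocks C1r and C1s, and Cd55 (decay accelerating factor) breaks up the convertases on the cell surface. The liver is the main source of most of these proteins, and macrophages and mesenchymal cells also make several of them.

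The promoters of Hc, the member that decided the list, and of 3 genes of the C1r and C1s cluster, all lower in late LM8 cells, are shown because the array results turn on these genes. Each window holds 300 bases from 250 before to 50 after the transcription start, 5′ to 3′ on the strand of the gene, from RefSeq (GRCm38.p6). Of the 9 members, the promoter table held Hc, C1ra, C3, Cfd and Cd55. Serping1, C2, Cfb and C4b had no entry. Capitals mark matches to any of the motifs searched on both strands.
Hc promoter, chr2:35061363-35061662, minus strand: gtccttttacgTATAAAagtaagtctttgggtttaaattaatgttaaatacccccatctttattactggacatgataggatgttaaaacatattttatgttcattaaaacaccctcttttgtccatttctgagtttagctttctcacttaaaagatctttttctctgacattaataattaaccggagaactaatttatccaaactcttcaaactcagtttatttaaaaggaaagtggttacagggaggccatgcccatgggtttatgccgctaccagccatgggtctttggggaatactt
C1ra promoter, chr6:124512371-124512670, plus strand: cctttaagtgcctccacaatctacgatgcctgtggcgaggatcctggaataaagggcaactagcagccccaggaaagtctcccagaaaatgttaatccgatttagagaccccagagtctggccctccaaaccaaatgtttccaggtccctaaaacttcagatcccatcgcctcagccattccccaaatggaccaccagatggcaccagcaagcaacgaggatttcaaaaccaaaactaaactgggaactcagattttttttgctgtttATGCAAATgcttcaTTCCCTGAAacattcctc
C1rb promoter, chr6:124570180-124570479, plus strand: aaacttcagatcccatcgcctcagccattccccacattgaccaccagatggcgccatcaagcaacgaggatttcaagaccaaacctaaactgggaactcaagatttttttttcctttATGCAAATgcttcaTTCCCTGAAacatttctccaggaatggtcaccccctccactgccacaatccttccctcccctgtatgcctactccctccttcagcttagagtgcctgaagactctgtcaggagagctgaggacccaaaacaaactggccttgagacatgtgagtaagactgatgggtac
C1s1 promoter, chr6:124542310-124542609, minus strand: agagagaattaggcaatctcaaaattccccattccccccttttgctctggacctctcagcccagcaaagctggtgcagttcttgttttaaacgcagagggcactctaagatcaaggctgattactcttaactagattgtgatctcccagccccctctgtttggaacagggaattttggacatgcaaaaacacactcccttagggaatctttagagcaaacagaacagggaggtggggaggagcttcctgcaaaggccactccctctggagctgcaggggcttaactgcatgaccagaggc
The motifs were TATAAA for the TATA box, TTCNNNGAA for GAS (the gamma-interferon activated site), ATGCAAAT for the octamer, 2 copies of GAAA set 2 bases apart for the interferon-stimulated response element, and GGG set 2 bases before TTTCC for NF-kB. No match overlapped another. In the window of Hc the only match was TATAAA at position -239 from the start, a motif held by 13.6% of 32851 promoter windows. The windows of C1ra and C1rb each held the octamer ATGCAAAT followed by the GAS TTCCCTGAA, at positions 18 and 32 from the start in C1ra and at -133 and -119 in C1rb. The octamer was found in 1.74% of all windows and GAS in 8.30%. The window shown for C1s1, the first of 2 in the table, held no match. The interferon-stimulated element (3.44% of all windows) and the NF-kB motif (1.63%) matched none of the 4 windows.

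Signals are given as log2 of the processed intensity minus log2 of the 75th percentile of the same array, so that 0 is the level of that percentile and a step of 1 is a 2-fold difference within a probe. The 75th percentile ran from 287 to 1903 over the arrays, and 39.1% to 59.7% of probes were well above background, as the scanner software judged it. This percentile went with line and passage. It was 287 to 603 in early Dunn, 686 to 961 in late Dunn, 893 to 1316 in early LM8 and 1166 to 1903 in late LM8 cells. The part of this brightness in the results below was not tested. The 3 arrays of LM8 at late passage correlated at 0.987 to 0.989 with each other. Late Dunn replicate 1 correlated at only 0.908 and 0.909 with the other 2 late Dunn arrays, which correlated at 0.985. This array had the highest share of probes well above background. It also had the highest summed level of the leukocyte markers, at 0.892 of the 75th percentile against 0.250 to 0.516 on the other arrays, and of the hepatocyte markers, at 0.585 against 0.0217 to 0.196. Of 8 leukocyte markers with a probe, 1 to 5 were above background on an array, and of 6 hepatocyte markers 0 to 4. Albumin (Alb) was well above background on none of the 12 arrays. Ptprc, the common leukocyte antigen, was so on none of the 6 Dunn arrays and on 1 early and 1 late LM8 array. Other markers of these lists were detected more widely. Csf1r, a leukocyte marker, was well above background on all 3 arrays of each group. The leukocyte marker Cd14 was so on 2 early Dunn arrays and on all 3 arrays of each other group. The leukocyte marker Lyz2 and the hepatocyte marker Ahsg were each so on all 3 late Dunn, 2 late LM8 and 1 early Dunn arrays. Of 8 osteoblast markers with a probe, 5 to 8 had an unflagged spot on an array, and each of these was well above background. Runx2, Sp7, Col1a1 and Ibsp were so on all 12 arrays. The part of these marker levels in the results below was not tested.

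Of the 9 members, C1ra and Serping1 were well above background on all 12 arrays and Cd55 on none. The other 6 were above background on some arrays. Hc, C2 and Cfb were above background on all 6 Dunn arrays and on none of the 6 LM8 arrays. C3, C4b and Cfd were above background on all 6 LM8 arrays and on some of the Dunn arrays. The lowest signal well above background was -5.84 to -3.58 on early Dunn arrays and -6.44 to -4.38 on late ones. On LM8 arrays it was -7.21 to -6.30, so a dimmer probe could pass there. In cell cultures such as these, fewer cells that express a gene and less RNA per cell cannot be told apart.

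Hc, on chromosome 2, encodes C5. Its signal was 2.46, 2.38 and 3.03 at early passage of Dunn and 1.92, 2.35 and 2.39 at late passage. The probe read -6.99, -6.81 and -8.79 in LM8 at early passage and -7.52, -7.91 and -7.35 at late passage, all without being well above background. The groups of the 2 lines lay far apart and those of 1 line overlapped between passages. Hc was at least 539-fold higher in Dunn than in LM8 at early passage and at least 537-fold at late passage. These bounds set the Dunn mean against the lowest signal that was well above background on each LM8 array, or the probe's own signal where that was higher. Under 16 alternative settings LM8 differed from Dunn by -10.5 to -6.20 at early and by -9.96 to -5.80 at late passage. Within Dunn, Hc differed by -0.40 (SE 0.35) between late and early passage, with a 95% interval from -1.26 to 0.45 and an adjusted p of 0.781 (limma, Benjamini-Hochberg over all probes).

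C2 and Cfb lie next to each other on chromosome 17 and encode the proteases of the classical and the alternative convertase. C2 read 3.66, 3.85 and 4.04 on the early Dunn arrays and -0.82, -0.65 and -0.13 on the late ones. In LM8 it lay between -8.79 and -7.44 and was well above background on none of the arrays. Cfb read -0.15, -0.12 and 0.46 on the early Dunn arrays and -2.54, -4.57 and -4.45 on the late ones. In LM8 the Cfb probe lay between -9.37 and -7.08, again never well above background. Early Dunn cells were therefore the highest of the 4 groups for both genes, late Dunn cells came next without overlap, and no order can be given within LM8. C2 was at least 1262-fold higher in Dunn than in LM8 at early passage and at least 79.8-fold at late passage. For Cfb these bounds were 91.5-fold and 7.99-fold. The late bound of Cfb rests on a Dunn mean that includes late Dunn replicate 1, at -2.54. The bounds hold for the main processing only. Under the 16 alternative settings LM8 differed from Dunn by -11.8 to -7.29 for C2 and -8.65 to -3.64 for Cfb at early passage. At late passage the ranges were -8.22 to -3.05 for C2 and -5.54 to -0.35 for Cfb.

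C1ra, on chromosome 6, encodes the protease that activates C1s. Its brighter probe read 2.62, 2.67 and 1.48 at early and 2.70, 2.53 and 2.63 at late passage of Dunn, against 1.70, 1.85 and 1.21 in early and 0.29, 0.45 and 0.20 in late LM8 cells. The late LM8 arrays were the lowest for this gene. The early groups of the 2 lines overlapped. The difference of LM8 from Dunn was -0.67 at early and -2.31 at late passage. The other probe of C1ra did not follow this pattern, with -0.37, 0.58 and -0.28 in early and -0.54, 0.28 and -0.54 in late LM8 cells, which overlapped. C1ra has a close relative, C1rb, so the probes may share signal between the genes.

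Serping1, on chromosome 2, encodes the inhibitor of C1r and C1s. It read 1.25, 1.08 and 1.56 in early Dunn, 1.40, 1.16 and 1.66 in late Dunn, 1.99, 1.24 and 1.71 in early LM8 and 0.15, 0.50 and 0.40 in late LM8 cells. The late LM8 arrays lay below the other 9 arrays, which overlapped. The second probe gave the same picture, with 0.16 to 0.31 in late LM8 cells and 1.40 to 1.69 in early LM8 cells.

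The other 4 members were near or below background. C3, the protein on which both pathways meet, read -4.59 to -3.99 in early Dunn, -4.96 to -4.52 in early LM8 and -4.43 to -4.28 in late LM8 cells. In late Dunn cells it was -4.69 and -4.43 on 2 arrays and -2.24 on late Dunn replicate 1. Cfd, the protease that cuts factor B, was also highest on that array, at -2.38, against -7.65 to -4.34 on the other arrays. C4b lay between -6.01 and -4.30 on all 12 arrays, with overlap of all groups. Cd55 lay between -9.40 and -5.77 and was well above background on none.

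Serial passage of Dunn cells was then compared. The list was put together on the loss of Hc in LM8, but with earlier results of these data known. The passage contrasts are therefore not shown to be independent of the choice, and the counts of members in them are descriptive. Of the 9 members, 6 were measured, which means well above background on all arrays of at least 1 of the groups compared. C3 reached this through late Dunn cells alone. None of the 6 passed an adjusted p under 0.05 with a change over 2-fold, where the background was 0.00916% of 10914 genes in either direction (limma). At the level of the study, over 2-fold at an unadjusted p under 0.05, C2 and Cfb were lower in late cells, 2 of 6 against a background of 4.83% lower. The median of the 6 changes was -0.14, against -0.22 over all genes measured.

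C2 was 20.8-fold lower in late than in early Dunn cells, a log2 difference of -4.38 (SE 0.34). It was lower by 4.17 to 4.49 on each of the 3 slides. The unadjusted p was 1.78e-05 and the adjusted p 0.0996 (limma). Cfb differed by -3.92 (SE 0.63), with an unadjusted p of 0.000987 and an adjusted p of 0.359 (limma). It differed by -4.44 and -4.91 on slides 2 and 3 and by -2.39 on slide 1, which holds late Dunn replicate 1. Without that array the differences were -4.24 for C2 (adjusted p 0.0523, limma) and -4.57 for Cfb (adjusted p 0.0465, limma). Leaving out any other array gave higher adjusted p-values, 0.508 to 0.917 for C2 and 0.508 to 0.999 for Cfb (limma). With the slide as a block the adjusted p was 0.206 for both genes (limma). Under the 16 alternative settings, C2 differed by -4.58 to -3.41 and Cfb by -4.57 to -2.81, with adjusted p under 0.05 in 6 and in 4 of them. C1ra differed by 0.37 (SE 0.43) and Serping1 by 0.11 (SE 0.32), with 95% intervals from -0.69 to 1.42 and from -0.68 to 0.91.

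In LM8 cells, 5 members were measured and 1 of them, C1ra, was down-regulated with passage at an adjusted p under 0.05 (background 2.51% lower of 12474 genes). C1ra fell by 1.27 (SE 0.23) on the log2 scale, 2.41-fold, with an adjusted p of 0.0475 (limma). On the 3 slides it differed by -1.41, -1.39 and -1.01. This call is close to the threshold. It was lost when any 1 of 5 of the 6 arrays was left out, all but early LM8 replicate 3. With the slide as a block the adjusted p was 0.0833 (limma), and leaving out 1 array gave 0.0324 to 0.208. With the mean of its 2 probes the difference was -0.76 and the adjusted p 0.218. Serping1 differed by -1.30 (SE 0.25), with an adjusted p of 0.0592 (limma) and a difference of -1.83, -0.74 and -1.31 on the 3 slides. It was under 0.05 in 5 of the 16 alternatives, among them the mean of its 2 probes, at 0.0158. At the level of the study both genes were lower in late cells, 2 of 5 against a background of 3.7% lower. C3, C4b and Cfd differed by 0.47, 0.43 and -0.48, with adjusted p-values of 0.297, 0.534 and 0.418 (limma).

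**Figure D1:**
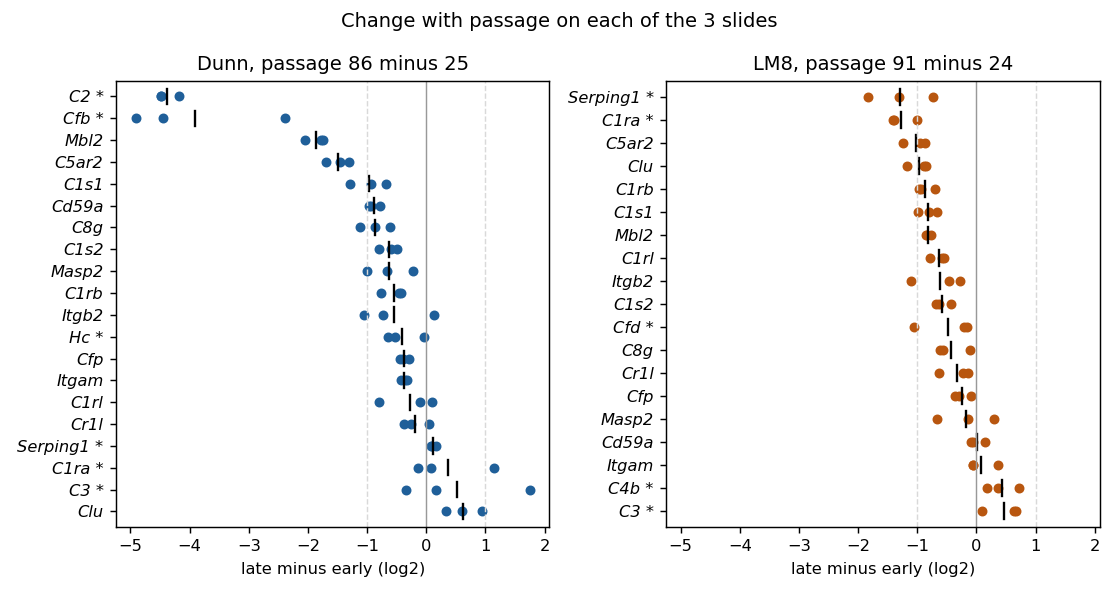
Late minus early log2 signal of complement genes measured in Dunn (left) and in LM8 (right), with members of the list marked by a star. Points are the differences within each of the 3 slides, black bars the fitted means, and dashed lines a 2-fold change. C2 and Cfb stand at -4.38 and -3.92 in Dunn, and Serping1 and C1ra are the lowest in LM8 at -1.30 and -1.27.

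The 2 passage effects were set against each other by an interaction term (line by passage) fitted on all 12 arrays. Of the 9 members, C1ra, Serping1 and C3 were well above background on all arrays of at least 1 group in each line. None of these had an adjusted p under 0.05, and C1ra and Serping1 had an unadjusted p under 0.05 (limma). The interaction was -1.64 (SE 0.47, adjusted p 0.348) for C1ra, -1.41 (SE 0.38, adjusted p 0.274) for Serping1 and -0.06 (SE 0.77) for C3. C2 and Cfb were not well above background on any LM8 array, so their change in LM8 was not measured and the term restates the change in Dunn cells. The fit gave 3.53 (SE 0.38, adjusted p 0.0037) for C2 and 2.97 (SE 0.82, adjusted p 0.305) for Cfb (limma), where 0.986% of all genes were called in either direction. Neither value is read as a difference between the lines. The lower C1ra and Serping1 in late LM8 cells are therefore not shown to differ from the change in Dunn cells.

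Between LM8 and Dunn the members are described without a test. Hc, C2 and Cfb were well above background in Dunn cells alone at both passages. C1ra differed by -0.67 at early and -2.31 at late passage by its brighter probe. The list was chosen on this contrast, so no member is called in it. Serping1 differed by 0.35 at early and -1.06 at late passage. The median difference over all measured genes was -0.34 at early and -0.18 at late passage.

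The rest of the pathway was followed through 44 further complement genes, of which 42 had a probe and C4a and C7 had none that matched. Of the 42, 13 were well above background on all 12 arrays, 17 on none and 12 on some. Those never above background included C1qa and C1qc, 2 of the chains of C1q, the terminal components C6, C8a and C8b, the inhibitors Cfi, C4bp, Vtn and Cd46, and the receptors C3ar1 and C5ar1. Of these genes, 15 were measured in each comparison. They included C1rb, C1s1, C1s2 and C1rl, Mbl2 and Masp2 of the lectin pathway, properdin (Cfp), C8g, clusterin (Clu), Cd59a, Cr1l, C5ar2, and the integrin chains Itgam and Itgb2, the last of which was named after its values were seen. Itgam counts as measured by its brightest probe, with group means from 2.38 to 3.18. Its other probes had group means from -7.02 to -4.61 and were well above background on no early Dunn array, so its level is uncertain.

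At early passage 3 of the 15 genes differed between LM8 and Dunn, 1 higher and 2 lower (background 2.3% higher and 3.47% lower). Clu, which binds the forming attack complex, was higher in LM8 by 2.18 (SE 0.30, adjusted p 0.0149, limma), with 2.79, 2.68 and 2.48 in LM8 and 0.34, 0.33 and 0.72 in Dunn. C1rb fell by 1.62 (SE 0.31, adjusted p 0.0442) and Mbl2, the mannose-binding lectin, fell by 1.46 (SE 0.29, adjusted p 0.0469, limma). At the level of the study 6 were lower (background 13.8%). The median of the 15 differences was -0.90, against -0.34 over all genes measured.

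At late passage 3 of the 15 were lower in LM8 and none higher (background 3.69% lower). C1rb differed by -1.94 (SE 0.22, adjusted p 0.0142), C1s1 by -1.43 (SE 0.24, adjusted p 0.0492) and C1rl by -1.33 (SE 0.23, adjusted p 0.0487, limma). C1rb had a mean of -2.19 (SD 0.18, n = 3) in late LM8 and read -0.13, -0.39 and -0.23 in late Dunn cells. C1s1, the protease that cuts C4 and C2, read 0.26, 0.40 and 0.17 in late LM8 and 1.95, 1.40 and 1.77 in late Dunn cells. Masp2, a protease of the lectin pathway, joined them at the level of the study with -1.28 (SE 0.27, adjusted p 0.0799), which made 4 of 15 lower (background 8.72%). Clu differed by 0.59 (SE 0.23, adjusted p 0.253). With the slide as a block, none of the 15 had an adjusted p under 0.05 with a change over 2-fold at either passage (limma), and 8 at early and 4 at late passage met the level of the study. Leaving out 1 array gave 0 to 8 calls at early and 0 to 4 at late passage, the 8 without early Dunn replicate 2 and the 4 without late Dunn replicate 1, and 0 without any 1 of the LM8 arrays.

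**Figure D2:**
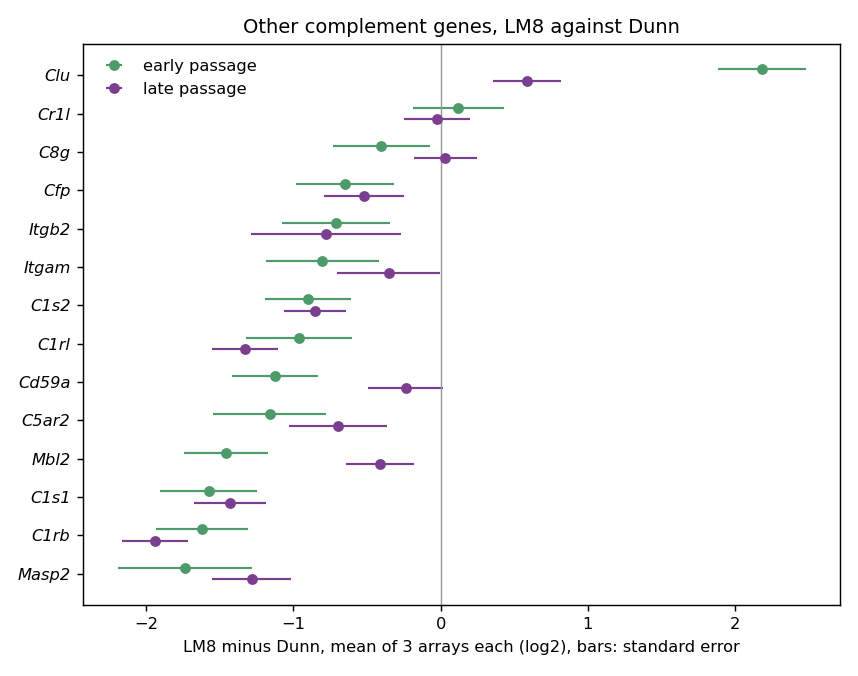
Difference of LM8 from Dunn (log2) for 14 other complement genes measured, at early (green) and late (purple) passage. Points are means of 3 arrays against 3 and bars are standard errors. Clu lies to the right at early passage, and C1rb, C1s1 and Masp2 lie to the left at both.

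With passage, none of these 15 genes passed the adjusted test in either line (limma). In Dunn cells Mbl2 (-1.86, SE 0.31) and C5ar2 (-1.49, SE 0.33) were lower at the level of the study (background 4.83% lower). C5ar2 is a second receptor for C5a, and it read 1.36, 1.39 and 0.91 on early and 0.05, -0.31 and -0.56 on late Dunn arrays. In LM8 cells C5ar2 alone reached that level, with -1.02 (SE 0.36, unadjusted p 0.0259, limma), against a background of 3.7% lower. The medians of the 15 changes were -0.55 in Dunn and -0.59 in LM8, against -0.22 and -0.05 over all genes measured.

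C1ra, C1rb, C1s1, C1s2 and C1rl lie side by side on chromosome 6 and were described together after their values had been seen. By their brightest probes, all 5 were lower in late than in early LM8 cells, by 0.59 to 1.27 on the log2 scale. C1ra alone passed the test. The groups of these probes did not overlap, whereas those of the other C1ra probe did. The other probe of C1s2 was well above background on no array, with group means from -8.92 to -6.66. Whether probes of this cluster share signal between genes was not tested, so the 5 genes may not be separate readings. The sign was the same under all 16 alternatives for each of the 5 genes. In Dunn cells 4 of the 5 were lower at late passage, with differences from -0.97 to 0.37. Of these, 3 showed no overlap of the groups, and none passed the test. The share of all genes without overlap was not counted, so nothing is read from the overlap in either line. C1s1 and C1s2 differed by -0.97 and -0.63 in Dunn cells and by -0.82 and -0.59 in LM8 cells. The sign in Dunn cells was turned in at least 1 alternative for each of the 5. All 5 were also lower in LM8 than in Dunn, with means from -1.62 to -0.67 at early and from -2.31 to -0.86 at late passage. This direction was turned in at least 1 alternative for 3 of the 5 genes at early passage and for 1 at late passage. The 5 flanking genes that were well above background on all arrays differed by -0.19 to 0.03 between late and early LM8 cells. Between LM8 and Dunn, Clstn3 differed by 3.41 at early and 2.14 at late passage. The others, Pex5, Emg1, Phb2 and Lpcat3, were all lower in LM8, with -1.07 to -0.51 at early and -0.74 to -0.30 at late passage.

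The neighbours of the other members were set beside them in the same way, also after their values had been seen. Around C2 and Cfb, 7 of 8 flanking genes were well above background on all 12 arrays. These 7 differed by -0.64 to 0.47 between late and early Dunn cells, where C2 and Cfb differed by -4.38 and -3.92. Between LM8 and Dunn they differed by -0.96 to 0.32 at early and -0.84 to 0.04 at late passage. Around Hc, 3 of 8 flanking genes were above background on all arrays, Psmd5, Rab14 and Gsn, and they differed by -0.62 to 0.73 between LM8 and Dunn at early and by 0.09 to 1.50 at late passage. Genes that differ in detection between the groups do not enter these ranges. Among them, Phf19 next to Hc was well above background on all 6 LM8 arrays and on no Dunn array, with means of -2.85 at early and -2.28 at late passage of LM8. Cntrl, on the other side of Hc, had a mean of -2.44 in early Dunn cells and of 0.25 in late ones, and of 0.13 and 0.51 in LM8. Slc44a4, near C2, was well above background on all 3 late LM8 arrays and on 1 other array.

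**Figure D3:**
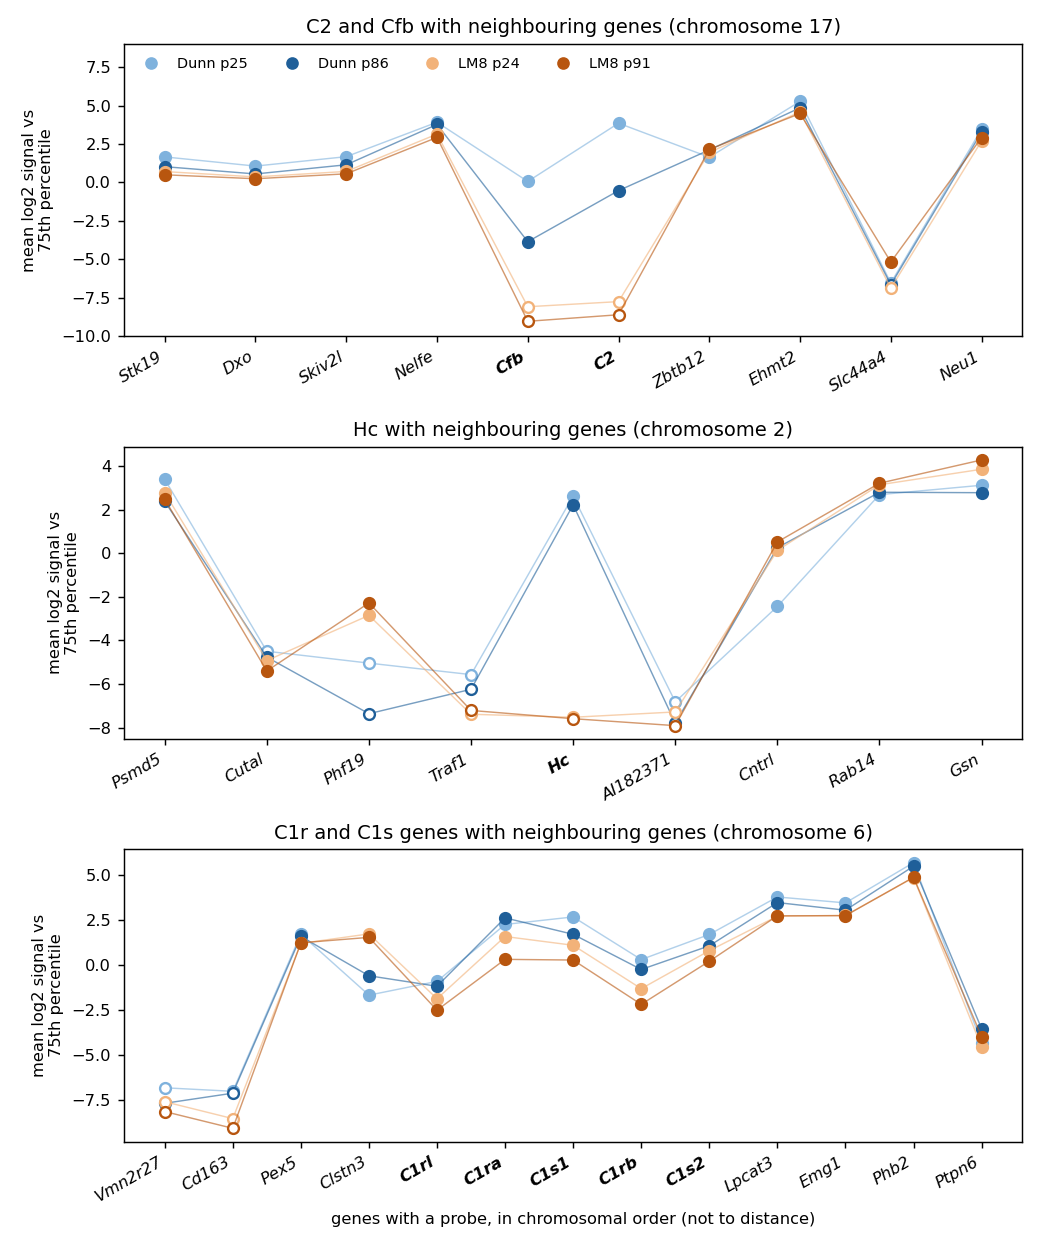
Mean log2 signal relative to the 75th percentile for C2 and Cfb, Hc, and the C1r and C1s genes (bold) with their neighbours in chromosomal order, for the 4 groups of 3 arrays. Points are filled where the probe was well above background on at least 2 of the 3 arrays of the group. Cfb, C2 and Hc are open in LM8, while the 7 neighbours of C2 and Cfb that are filled in all groups differ by -0.96 to 0.32 between LM8 and Dunn at early passage, and the 5 C1r and C1s genes are lowest in late LM8 cells.

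The genes most like Hc were looked for over the 12 arrays, by the root mean square difference of the profiles after each was centred, among 11252 probes. The 5 nearest were Sgce (0.42), Limch1 (0.53), Slit3 (0.61), Fbn1 (0.68) and Ap1s3 (0.90). Each was well above background on all 6 Dunn arrays and on none of the 6 LM8 arrays. Hc has the same pattern, so the search favoured such genes and nothing is read from it. On the LM8 arrays it compared readings that were not well above background. How many of the 11252 probes have this pattern was not counted. Sgce, epsilon-sarcoglycan, had a mean of 2.67 at early and 1.73 at late passage of Dunn and of -7.62 and -7.29 in LM8. C2 and Cfb were at 1.55 and 2.20 from Hc by this measure.

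Complement genes such as C2, Cfb, C3, C1r and Serping1 are known targets of interferon and NF-kB, so 21 genes of these pathways were followed on the same arrays. Of 18 measured, 5 fell with passage in LM8 cells, all those called (background 2.51% lower, limma). Irf7 and Irf9, transcription factors of the interferon response, fell by 2.37 (SE 0.39, adjusted p 0.0316) and 2.15 (SE 0.22, adjusted p 0.00528). Isg15, a ubiquitin-like interferon product, fell by 2.11 (SE 0.34, adjusted p 0.0289, limma). Psmb8 and Psmb9, subunits of the immunoproteasome, fell by 1.74 and 1.63 with adjusted p-values of 0.0356 and 0.0385 (limma). In Dunn cells none of 15 measured passed the adjusted test, and 3 were lower at the level of the study (background 4.83% lower). Psmb9 was among them, with a difference of -2.29 (SE 0.31, adjusted p 0.244, limma). Between LM8 and Dunn, 3 of 17 were lower at each passage (background 3.47% lower at early and 3.69% at late passage). Psmb8 differed by -2.38 at early and -2.92 at late passage and Psmb9 by -2.77 and -2.12, with adjusted p-values from 0.00702 to 0.0195 (limma). At early passage Psmb9 had a mean of 4.21 (SD 0.17, n = 3) in Dunn and 1.44 (SD 0.47, n = 3) in LM8. No relation between these genes and the complement members was tested.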

How the data were processed

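RNA of Dunn and LM8 cells at early and late passage was hybridised to Agilent single-colour mouse 4x44k v2 arrays. The labels name RNeasy and the study's methods TriReagent. The authors deposited the Agilent Feature Extraction 10.7.3 output of each array, and the values used are its processed signal, the intensity of a spot less its background, not yet scaled between arrays. The authors also deposited 1 table, which holds the same intensity, rounded.

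From these files, control and flagged spots were left out, 43020 spots were averaged into 39429 probes, and accessions were matched to RefSeq genes (26581 probes, 67.4%, and 20144 genes). The log2 of the 75th percentile of an array was subtracted from its log2 signals, and groups were compared with limma 3.58.1 (R 4.3.3) on the arrays of the 2 groups compared, adjusted by Benjamini-Hochberg over probes. A gene is represented by its brightest probe. A call needed a measured gene, a change over 2-fold and an adjusted p under 0.05. The members and the lists were chosen with earlier results of these data known. Named genes are all members, the other complement genes called in any comparison or well above background on all arrays, at most 5 called interferon or NF-kB genes with the largest change, and the 5 genes most like Hc. The counts of the other complement genes include 1 gene that is not reported here. Reference sequences carry GRCm38.p6 coordinates, and the scanner files name mm9, so no coordinate was moved between them.

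The 12 arrays lay on 3 slides with 1 array per group, and a group kept its position on every slide, so position and group cannot be told apart. The replicate number marks the slide. Deviations of same-numbered arrays from their group means correlated at -0.246 to 0.679, over 0.1 in 12 of 18 pairs. The slide was used as a block only as an alternative, so the main fits leave this pairing out. Other alternatives were quantile normalization, the median of probes well above background, normexp (offset 50, on median signals as the files hold no mean signal), the deposited table, a floor, only probes well above background, the mean of a gene's probes, 1 fit over all arrays, the methods' test and leaving out each array. Brightness limits each array, since dim probes have only a bound, and 3 arrays per group limit the precision. The steps were tested on simulated data.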

Additional observations from a re-analysis of the deposited data

Results flagged for a closer look

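C2 stands out in the fit of the change with passage by line, and the value is limited by background. The change in LM8 minus that in Dunn was 3.53 on the log2 scale (SE 0.38, adjusted p 0.0037, limma), and 2.93 to 4.38 under the 21 alternatives. The probe was well above background on none of the 6 LM8 arrays, so no change was measured there and the value restates the lower C2 in late Dunn cells. It does not show that the lines differ in their response to passage.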

How the results depend on the processing

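The deposited table, which carries no scaling between arrays, turned the difference of C5ar2 (0.30), Cd59a (0.34) and Mbl2 (0.014) at early passage and that of Hc in Dunn cells (0.56), of which only Mbl2 at early passage had passed the adjusted test. It also turned C1ra (0.80), C1rl (0.50) and C1s2 (0.57) at early passage and C1s2 at late passage (0.0095) between the lines, and C1rb (0.41), C1rl (0.70), C1s1 (0.00013) and C1s2 (0.34) in Dunn cells. The mean of probes turned C1ra at early passage. Other directions turned for values that had not passed a test. In Dunn cells these were C3 (-0.36) and in LM8 cells C4b (-0.030), both with normexp. Leaving out 1 array gave -0.023 to 0.57 for C1ra in Dunn cells, -0.013 to 0.25 for Serping1 and -0.25 to 0.97 for C3, the lowest without early Dunn replicate 3, late Dunn replicate 3 and late Dunn replicate 1.

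The counts of complement genes called moved with the setting, and the cause was not tested. With passage and for the interaction they cover the members and the other complement genes, and between the lines only the 15 other genes measured, since the members were not tested there. In late versus early Dunn cells, where 0 were called, the count was 2 with quantile normalization, 3 with only probes well above background and with 1 fit over all 12 arrays, and 1 with normexp, the floor and the mean of probes. In LM8 cells, where 1 was called, it was 2 with quantile normalization, normexp and only probes well above background, and 0 with the deposited table, the floor, 1 fit over all arrays, the replicate block and the methods' t-test. At the level of the study it was 0 with the deposited table and 1 with the mean of probes instead of 3. For LM8 versus Dunn at early passage, 3 became 5 with quantile normalization, 8 with normexp and with only probes well above background, 7 with 1 fit over all arrays, 1 with the median of probes above background and 0 with the replicate block, and 8 at the level of the study became 4 with the deposited table. At late passage 3 became 1 with the median of probes above background and 0 with the deposited table and with the replicate block, and 4 at the level of the study became 2 with the deposited table. For the interaction 1 became 3 with quantile normalization, 2 with the median of probes above background, only probes well above background, the mean of probes and the methods' t-test, 4 with the floor and 0 with the deposited table.

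Leaving out 1 array gave 0 to 1 calls in Dunn, 0 to 1 in LM8, 0 to 8 at early and 0 to 4 at late passage between the lines and 1 to 2 for the interaction. At the level of the study these ranges were 4 to 7, 2 to 4, 7 to 9, 4 to 4 and 6 to 8. Pairing arrays by slide, as the replicate block, left the count for the interaction at 1, which is C2 and was not measured in LM8.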
